A study of Zea mays with 4 samples.

Results

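The genes described here are the 81 maize genes whose transcript level in developing endosperm was at least 2 times higher at 6 days after pollination (DAP) than in any library of 7 DAP. They were chosen by that ratio from 9818 genes with a mean of at least 10 CPM over the 4 libraries, where CPM is the transcript count of a gene per 1000000 counts of its library, and only the 43789 gene models with an identifier of the form Zm00001d were eligible. NAC130, which also meets the limit, was left out of the set. Because the ratio of 6 to 7 DAP chose the members, that contrast is given below as a description and carries no test.

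Single-cell transcriptomes were measured in protoplasts of wild-type B73 endosperm, with 1 library at 6 DAP and 3 replicate libraries at 7 DAP. B73 is the inbred line behind the maize reference genome, and protoplasts are cells freed from their walls by enzymes. Kernels were pooled for each extraction. The study calls the 7 DAP libraries biological replicates, and the labels do not say whether they came from separate plants. Transcripts were counted as unique molecular identifiers (UMIs), each of which stands for 1 captured RNA molecule. CPM is taken from the total of the same library or, further on, of the same cell class. With a single 6 DAP library, age and library cannot be told apart, and intervals at 6 DAP cover counting error only. In sums over cells, fewer cells of a type and less RNA per cell cannot be told apart either.

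Endosperm is the tissue that feeds the embryo of a cereal grain. Its outer cells become the aleurone layer (AL), its interior the starchy endosperm (SE), its base the basal endosperm transfer layer (BETL) that takes up sugars from the mother plant, and a small region around the embryo the embryo-surrounding region (ESR). Glycolysis, the breakdown of sugars to pyruvate, and translation, the synthesis of proteins by ribosomes and elongation factors, are the housekeeping pathways that the best-known members belong to.

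The libraries differed in depth along the same axis as the ages. After the cell filter 3141 cells remained at 6 DAP with a median of 1814 UMIs, and 4815, 4871 and 4385 cells remained in the 7 DAP replicates with medians of 3979, 5599 and 5659 UMIs. The total was 7117959 UMIs at 6 DAP and 25574646 to 35365891 at 7 DAP. Between 3 and 7 kept cell barcodes were shared by any pair of libraries. Markers of embryo, oleosins and globulins, summed to 9.83 CPM at 6 DAP and 19.4 to 22.6 CPM at 7 DAP, and the ovule and carpel markers ZAG2 and ZMM2 were at 0 UMIs at 6 DAP and at no more than 2.07 CPM at 7 DAP. The light-harvesting gene that stood for green maternal tissue stayed at or below 0.421 CPM in all 4 libraries. Their part in the results was not tested.

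The members summed to 13370 CPM at 6 DAP and to 5917, 5392 and 5343 CPM in the 7 DAP replicates. The share of genes at or above the limit was 0.835% of the genes tested, NAC130 included. Counts per member at 6 DAP ran from 136 to 19936 UMIs with a median of 359. For all 81 members the lower end of the 95% exact Poisson interval at 6 DAP was above the highest 7 DAP library, which the rule makes likely at these counts. Most members lay close to the limit. The ratio of the 6 DAP level to the highest 7 DAP library had a median of 2.14, was below 2.1 for 33 members and reached 2.5 for 11. The 3 members just inside were Zm00001d020544 (53.2 CPM at 6 DAP and 26.6 CPM in the highest 7 DAP library), the pyruvate kinase gene Zm00001d040446 (534 and 266 CPM) and Zm00001d033855 (34.1 and 17.01 CPM). The 3 genes just outside were Zm00001d002436 or AOX2 (134 and 67.1 CPM), an alternative oxidase, which lets mitochondrial electrons bypass the later steps of respiration, Zm00001d033830 (60.6 and 30.3 CPM) and Zm00001d038487 (24.9 and 12.5 CPM).

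**Figure D1:**
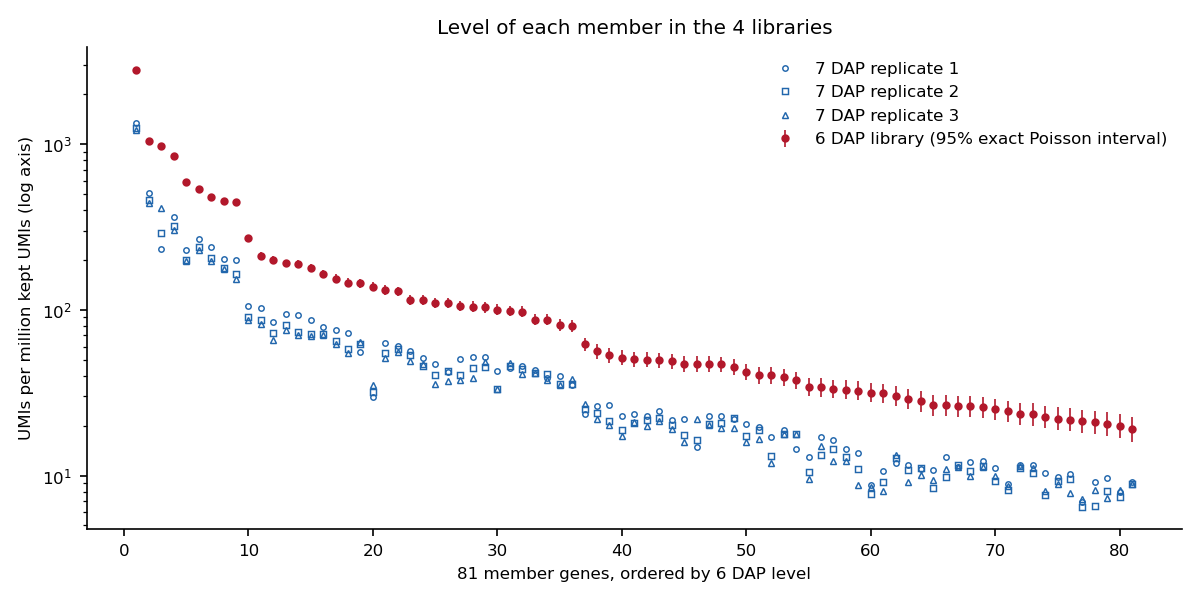
Level of each of the 81 members in the 4 libraries, in CPM on a log axis, with members ordered by their 6 DAP level. Red points are the 6 DAP library with its 95% exact Poisson interval and blue open symbols are the 3 replicates of 7 DAP. The red points run from 19.1 to 2801 CPM and lie above all 3 blue symbols for every member, as the rule requires.

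The set changed with the scaling and with the cells used, and the causes were not tested. The shallowest 7 DAP library, replicate 1, was the highest of the 3 for 65 of the 81 members, against 63.7% of all genes tested. Without it 218 genes met the limit in place of 81, and without replicate 3 it was 106. With TMM scaling, which sets libraries on the level of the typical gene, 40 of the members stayed at or above 2, and with DESeq2 size factors 46 did. The median log2 ratio to the highest 7 DAP library was 0.06 over all genes with library totals and -0.07 with TMM, and that of the members was 1.09 and 1.00. When all cells were thinned to 1000 UMIs, 34 members stayed at or above 2. When only cells of at least 1000 and under 2500 UMIs were used in every library, 16 members did, 73 were still above all 3 libraries of 7 DAP, and 8 were below at least 1 of them. In those cells the median gene was lower at 6 DAP, with a log2 ratio of -0.34, and the median member had 0.65.

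The members that passed under TMM scaling, after thinning and in cells of matched depth numbered 11. They were RPS21A, ELFA11, ZNF6 and 8 genes with no described product, of which Zm00001d016691, Zm00001d034443, Zm00001d008693 and Zm00001d035629 are described below. Ratios are given with library totals unless they are said to be at matched depth, which means in those shallow cells only. Matched depth does not match cell class. By the marker classes defined further on, AL-marker cells made up 23.6% of the shallow cells at 6 DAP and 7.39% to 10.5% at 7 DAP, BETL-marker cells 16.9% and 6.26% to 9.50%, and SE-marker cells 16.5% and up to 27.8%, so whole-library ratios at matched depth also carry this difference in mix.

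**Figure D2:**
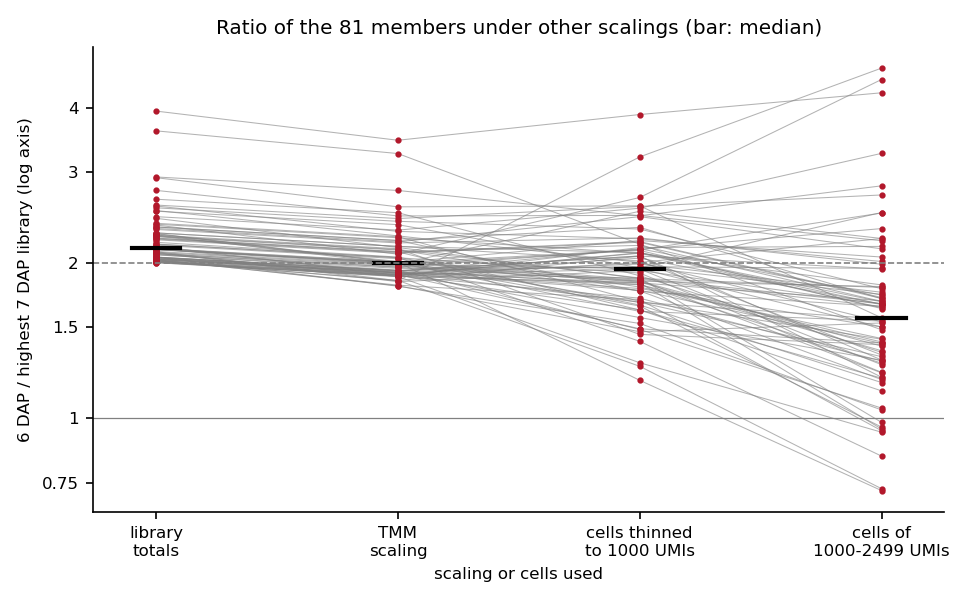
Ratio of the 6 DAP level to the highest 7 DAP library for the 81 members on a log axis, with library totals, TMM scaling, cells thinned to 1000 UMIs and cells of at least 1000 and under 2500 UMIs. Each line is 1 member, the black bar is the median and the dashed line is the limit of 2. The members spread from 0.724 to 4.78 at matched depth, where 16 remain at or above 2.

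Genes of protein synthesis made up 3 of the 10 members with the highest 6 DAP level. ELFA11, named elongation factor alpha1, delivers aminoacyl-tRNAs to the ribosome. It was at 591 CPM at 6 DAP and at 228, 199 and 197 CPM in the 7 DAP replicates. The 7 DAP libraries lay close together and the 6 DAP level was 2.59 times the highest, or 2.71 times at matched depth. ELFA3, a second elongation factor gene, was at 845 CPM against 364, 322 and 305 CPM, a ratio of 2.32 that was 1.99 at matched depth. Both belong to a family of similar copies, and how the authors' counting treated reads shared between copies is uncertain. RPS21A encodes the small-subunit ribosomal protein S21. It was at 970 CPM at 6 DAP and at 233, 292 and 409 CPM at 7 DAP. Its 7 DAP libraries were widely spaced, with replicate 3 highest, and its ratio was 2.37, or 4.54 at matched depth.

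Other genes of the translation machinery were described from the enrichment rows of the study held here. Over all genes tested, 56.5% were above all 7 DAP libraries and 30.2% below them. Of 97 ribosome genes 38 were above and 51 below, none met the limit in either direction, and the median log2 ratio of 6 DAP to the 7 DAP mean was -0.16 against 0.15 over all genes. Of 111 genes of translation 1 met the limit, ELFA3. The members RPS21A and ELFA11 are on neither list as held here, so these counts leave them out. At a share of 0.835% over all genes, counts of 0 or 1 in lists of this size are at the background. These lists were drawn by the study from clusters of the same cells and are not independent of them. HSP3 (Zm00001d018641), known here by its symbol only, was at 34.4 CPM at 6 DAP and at 12.9, 10.5 and 9.50 CPM at 7 DAP. Its ratio was 2.66, or 1.34 at matched depth, and none of 34 tested genes listed under response to heat met the limit.

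Genes of sugar breakdown formed the next group. ENO1, the enolase that makes phosphoenolpyruvate in glycolysis, had the most counts of all members, at 2801 CPM with a 95% interval of 2762 to 2840 at 6 DAP. Its 7 DAP replicates were at 1342, 1242 and 1213 CPM, and its ratio of 2.09 was 2.33 at matched depth. Zm00001d040446, annotated as a pyruvate kinase, the enzyme that follows enolase, was at 534 CPM against 266, 239 and 230 CPM, and its ratio at matched depth was 2.15. A second pyruvate kinase gene, MMP18, was at 164 CPM against 78.9, 71.5 and 70.1 CPM. Its ratio was 2.08 and 1.38 at matched depth. Within the shallow AL-, SE- and BETL-marker cells the ratios were 2.70, 1.80 and 2.29 for Zm00001d040446 and 2.24, 1.51 and 1.07 for MMP18. Pyruvate kinases also form a gene family, with the same doubt about shared reads. ENO1 and both pyruvate kinase genes belong to a list of 30 glycolysis genes in the study's enrichment rows. Thus 3 of the 30 met the limit, beside 0.835% of all genes. Of the 30, 24 were above all 7 DAP libraries and 3 below, beside the 56.5% and 30.2% over all genes. The median log2 ratio was 0.54 against 0.15 over all genes. These values include the 3 members, which the rule placed above all 7 DAP libraries. The list, too, was drawn by the study from clusters of the same cells.

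Another pair of members stands at the entry and at a side branch of the pathway. Fructokinase1, which phosphorylates fructose released from sucrose, was at 25.9 CPM at 6 DAP and at 12.2, 11.4 and 11.3 CPM at 7 DAP, a ratio of 2.13 and 1.80 at matched depth. PPCK2 is a kinase of phosphoenolpyruvate carboxylase, the enzyme that draws phosphoenolpyruvate towards organic acids. It was at 114 CPM against 51.2, 46.0 and 46.9 CPM, with a ratio of 2.23 that was 1.71 at matched depth.

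Regulators of transcription and of small RNAs numbered 6 among the named members. AGO2A encodes an Argonaute protein, the class that binds small RNAs, and was at 271 CPM at 6 DAP and at 106, 90.1 and 86.6 CPM at 7 DAP, a ratio of 2.56 and 1.78 at matched depth. ZNF6, zinc finger protein6, was at 110 CPM against 42.4, 42.6 and 37.1 CPM, and its ratio of 2.58 was 2.01 at matched depth. HAGTF17, annotated as a GNAT-type transcription factor, was at 97.6 CPM against 46.0, 43.9 and 41.1 CPM. At matched depth HAGTF17 had a ratio of 1.63.

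RLD1 and RLD2, the rolled leaf genes that encode HD-ZIP III transcription factors of leaf polarity, were near the floor set for the mean. RLD1 was at 26.1 CPM at 6 DAP and at 12.0, 10.6 and 9.96 CPM at 7 DAP, and RLD2 was at 21.8 CPM against 10.2, 9.53 and 7.83 CPM. At matched depth their ratios were 0.845 and 0.961, so for both the 6 DAP library no longer lay above every 7 DAP library. Within the shallow SE-marker cells the ratios were 1.39 and 1.16. MYB138, a MYB transcription factor, was at 33.3 CPM against 16.4, 14.4 and 12.2 CPM, with 1.40 at matched depth.

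Members of signalling and transport within the cell included abundant ones. A gene for a 14-3-3-like protein, Zm00001d050375, whose family binds phosphorylated proteins, was at 1041 CPM at 6 DAP and at 508, 458 and 444 CPM at 7 DAP. Ran-binding protein 1, a cofactor of nuclear transport, was at 212 CPM against 103, 87.1 and 82.6 CPM. Both had a ratio of 2.05 that was 1.95 at matched depth, just under the limit. The gene Zm00001d052061, annotated as protein CYPRO4, was at 445 CPM against 199, 165 and 153 CPM, and a probable inactive receptor kinase, Zm00001d044434, was at 154 CPM against 75.5, 65.3 and 62.1 CPM. Their ratios at matched depth were 1.68 and 1.32.

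Membrane and lipid proteins made up a further group. VPP4 and VPP1 belong to the vacuolar proton pumps, which acidify the vacuole. VPP4 was at 129 CPM at 6 DAP and at 60.4, 57.9 and 56.0 CPM at 7 DAP, and VPP1 was at 56.1 CPM against 26.4, 23.8 and 22.0 CPM. Both were still above every 7 DAP library at matched depth, where VPP1 had a ratio of 1.54. PLT1, a phospholipid transfer protein homolog, was at 87.4 CPM against 43.2, 41.8 and 41.5 CPM, and its ratio was 2.02 with library totals and 4.78 at matched depth, the highest of the 81 members there. Within the shallow AL-marker cells, where it is chiefly found, its ratio was 3.10. Plasma membrane intrinsic protein2, an aquaporin that lets water cross the membrane (Zm00001d017288), had the reverse order. It was at 20.5 CPM against 9.62, 8.12 and 7.28 CPM, and at matched depth its ratio was 0.724, the lowest of the members.

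The remaining members with a described product were enzymes and a cell wall peptide. DHAR2 (Zm00001d011035), whose symbol stands for dehydroascorbate reductase, the enzyme that regenerates ascorbate, was at 21.2 CPM against 6.92, 6.45 and 7.25 CPM, a ratio of 2.93 and 1.57 at matched depth. SACD2, a stearoyl-acyl-carrier-protein desaturase that makes unsaturated fatty acids, was at 191 CPM against 94.7, 81.3 and 75.7 CPM, with 1.20 at matched depth. A putative cytochrome P450 gene, Zm00001d037089, was at 30.2 CPM against 11.9, 12.8 and 13.3 CPM, with 2.23 at matched depth. Arabinogalactan peptide 3, a small cell surface glycopeptide, was at 98.5 CPM against 44.7, 45.8 and 47.9 CPM, with 1.04 at matched depth. Of these 4 genes only the P450 gene had a ratio above 2 at matched depth. Within the shallow BETL-marker cells, where DHAR2 and the P450 gene are chiefly found, their ratios were 1.03 and 2.29. Arabinogalactan peptide 3 had 1.44 within the shallow SE-marker cells.

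The largest ratio belonged to a gene with no described product. Zm00001d016691, whose symbol csu308 is only a mapping marker, was at 138 CPM at 6 DAP with an interval of 129 to 147, and at 29.8, 31.9 and 35.0 CPM at 7 DAP. Its ratio was 3.94, or 4.28 at matched depth, and it was 1 of 2 members that met a limit of 3. The other was Zm00001d011193, with 31.6 CPM against 8.76, 7.78 and 8.51 CPM, whose ratio of 3.61 was 1.48 at matched depth. Zm00001d034443 followed with 31.5 CPM against 10.7, 9.13 and 8.02 CPM and 2.82 at matched depth. Zm00001d008693 was at 24.4 CPM against 8.84, 8.14 and 8.69 CPM, and Zm00001d035629 was at 28.1 CPM against 10.1 to 11.1 CPM. Their ratios at matched depth were 2.21 and 2.23. The floor of 10 CPM is a mean that includes the 6 DAP library. At 7 DAP the means of Zm00001d011193, Zm00001d034443, Zm00001d008693 and DHAR2 were 8.35, 9.29, 8.56 and 6.87 CPM. They thus reached the floor only through the 6 DAP library, which favours large ratios among low genes. The same holds for further members, among them plasma membrane intrinsic protein2 and RLD2, with 7 DAP means of 8.34 and 9.20 CPM.

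Among the 10 members with the highest 6 DAP level, those with no described product were Zm00001d053857 and Zm00001d027037. Zm00001d053857 was at 481 CPM against 238, 205 and 196 CPM, and Zm00001d027037 was at 452 CPM against 204, 178 and 175 CPM. Members named only by mapping markers were Zm00001d031344 with 106 CPM at 6 DAP, Zm00001d033913 with 179 CPM and Zm00001d050106 with 25.1 CPM, and Zm00001d003123, whose best Arabidopsis match is annotated as a Tudor/PWWP/MBT superfamily protein, had 146 CPM. In all, 49 members carry neither a symbol nor a product in the files or the study's tables, and they ran from 19.1 to 481 CPM at 6 DAP with ratios of 2.00 to 3.61.

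Several other gene lists held none of the members, which at 0.835% over all genes is at or near the background for lists of their size. No member is on the study's S-phase or G2/M-phase lists, of which 115 and 182 genes were tested, and none met the limit in either direction. The median log2 ratio was 0.03 for the S-phase list and 0.15 for the G2/M list, beside 0.15 over all genes. None is on any of 19 hormone lists of the study, with 100 genes tested over the lists. Of 23 nucleosome genes 16 were below all 7 DAP libraries and 5 above, beside 30.2% and 56.5% of all genes, and their median log2 ratio was -0.33. Genes of the mitochondrion and plastid, taken by their identifiers, could not be members, since only Zm00001d gene models were eligible. Of 30 tested, 0 were at least 2 times higher at 6 DAP. They held 0.208% of UMIs at 6 DAP, within the range of the 7 DAP libraries. In the enrichment rows of clusters that the study set aside, 2 of 87 tested genes of cluster 14 met the limit, Zm00001d040446 and Zm00001d016691. For cluster 17 it was 1 of 147, again Zm00001d016691, and for clusters 13 and 16 it was 0 of 165 and 0 of 5. The share over all genes was 0.835%. The study assigned cluster 14 to nucellus and cluster 17 to embryo. Whether such cells bear on these members was not tested.

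To see which cells hold the members, cells were assigned by marker genes. A cell took the class whose markers were most over-represented in it relative to the library mean, if its share was at least 1.5 times that mean and rested on at least 3 marker UMIs. The markers were AL9, VPP7 and SBT1 for AL, FL3, TAR1, ZP27, SH2, DE18, PDK1 and CNGT1 for SE, 10 BETL genes such as BETL9 and MRP1, and 6 ESR genes, many of which the study picked from these libraries. A further AL marker, Zm00001d024210, had no UMI in any library. The classes are ranges of a score and not proven cell types, so they are called AL-marker, SE-marker and BETL-marker cells.

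At 6 DAP 723 cells were AL-marker, 532 SE-marker and 552 BETL-marker, and 1328 had no class. In the 7 DAP replicates 917 to 1003 were AL-marker, 927 to 991 SE-marker, 595 to 671 BETL-marker and 1899 to 2196 had no class. ESR-marker cells numbered 6 at 6 DAP and 91, 57 and 47 at 7 DAP, too few to describe the members in. Of the 9439 cells in the 3 main classes, 523 had a score within 10% of the limit, and a second class scored more than 0.5 of the best in 107 to 232 cells per library. No doublet caller was run.

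Each class held the most of its own markers, but AL markers were abundant in every class. The AL markers summed to 34557 CPM in AL-marker cells at 6 DAP, against 2089 in SE-marker and 1270 in BETL-marker cells. At 7 DAP AL-marker cells held 123445 to 138668 CPM of them, chiefly from AL9, and they also reached 12111 to 15126 CPM in SE-marker and 12588 to 15031 CPM in BETL-marker cells. The SE markers summed to 3400 CPM in SE-marker cells at 6 DAP and to 3039 to 3757 CPM at 7 DAP, against 179 to 340 CPM in AL- and BETL-marker cells over both ages. SE-marker cells of 7 DAP thus held more AL-marker than SE-marker UMIs, below the library sum of 44417 to 46574 CPM for the AL markers. A CPM is a share, so a rise of 1 gene to this level lowers the CPM of the others in the same cells, and its part in the results was not tested. The BETL markers summed to 91553 CPM in BETL-marker cells at 6 DAP and to 111065 to 121875 CPM at 7 DAP. They were also present at 370 CPM in AL-marker cells at 6 DAP and at 1215 to 1617 CPM at 7 DAP, outside their own class. Median depth differed among classes at 7 DAP, with 3088 to 4312 UMIs in SE-marker, 4907 to 6778 in AL-marker and 6046 to 9693 in BETL-marker cells, while it lay between 1802 and 1924 in all 3 classes at 6 DAP.

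All 3 classes held members at both ages. At 6 DAP the SE-marker cells had 22.8% of the members' UMIs and 18.5% of all UMIs, the AL-marker cells 20.003% and 22.2%, the BETL-marker cells 15.4% and 17.8%, and the unclassed cells 41.7% and 41.3%. At 7 DAP the SE-marker cells had 18.9% to 20.1% of the members' UMIs and 14.3% to 14.6% of all UMIs. The AL-marker cells then had 16.05% to 17.4% of the members' UMIs and 21.3% to 22.9% of all UMIs. The BETL-marker cells had 16.5% to 18.2% of the members' UMIs and 17.6% to 19.7% of all UMIs. The direction for AL-marker cells depended on the markers used. When cells were assigned without the most abundant marker of each class, AL9 among them, the AL share of the members' UMIs was 12.8% at 6 DAP and 20.3% as the mean of 7 DAP, the reverse order, and with thinned cells it was 18.2% and 18.03%. The AL share of all UMIs was not computed under these assignments. Class size and the level of the members therefore cannot be told apart there. The members summed to 16521 CPM in SE-marker cells, 12026 in AL-marker cells and 11576 in BETL-marker cells at 6 DAP, and at 7 DAP to 7056 to 8088, 3869 to 4460 and 4947 to 5547 CPM.

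The SE-marker cells were the most frequent site of the highest level. Of the 81 members 57 had their highest level there at 6 DAP, 16 in AL-marker and 8 in BETL-marker cells, beside 52.4%, 28.8% and 18.9% of all genes tested. At 7 DAP it was 65 in SE-marker, 8 in AL-marker and 8 in BETL-marker cells, beside 72.7%, 15.9% and 11.3% of all genes, so the members stood near the background at the later age. The highest class was the same at both ages for 67 members, among them 55 in SE-marker cells, and the same in all 3 replicates of 7 DAP for 70.

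The difference between the ages was present in each class. Within AL-marker cells 71 members were at least 2 times higher at 6 DAP than in every 7 DAP library, where 6.02% of all genes were. Within BETL-marker cells 45 members were, beside 3.23%, within SE-marker cells 30, beside 0.652%, and in unclassed cells 46, beside 0.835%. The median ratio was 2.70 in AL-marker, 2.06 in BETL-marker, 1.79 in SE-marker and 2.05 in unclassed cells. The corresponding medians over all genes were 1.15, 1.09, 0.922 and 0.979. In each of the 3 marker classes 74 members were above all libraries of 7 DAP, beside 28.7% of all genes. These shares come from the contrast that chose the members and support nothing further.

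The counts were lower in shallow cells, where depth, the choice of cells and counting error cannot be told apart. Among cells of at least 1000 and under 2500 UMIs, 39 members were at least 2 times higher in AL-marker, 22 in SE-marker, 14 in BETL-marker and 18 in unclassed cells, beside 4.22%, 0.968%, 2.49% and 0.815% of all genes. The medians were 1.95, 1.63, 1.24 and 1.56, while the medians over all genes were 0.809, 0.760, 0.697 and 0.765. The AL-, SE- and BETL-marker cells among them numbered 531, 372 and 380 at 6 DAP and as few as 73, 244 and 55 in a 7 DAP library. The 39 members include Zm00001d017288, Zm00001d008693 and Zm00001d053740, which had no UMI in the shallow AL-marker cells of 7 DAP. When the 7 DAP levels were weighted by the 6 DAP share of UMIs in each class, the median member's level changed by a factor of 1.02, within a range of 0.954 to 1.18, and 61 of 81 members stayed at or above 2.

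**Figure D3:**
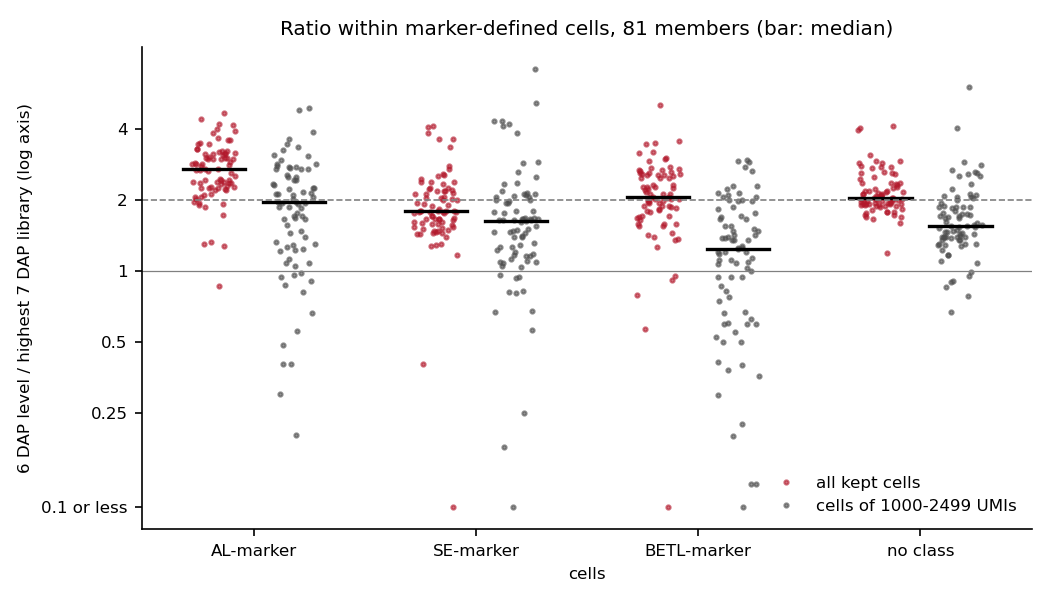
Ratio of the 6 DAP level to the highest 7 DAP library within AL-marker, SE-marker, BETL-marker and unclassed cells for the 81 members, on a log axis. Red points use all kept cells and grey points cells of at least 1000 and under 2500 UMIs, the black bars are medians and the dashed line is a ratio of 2. Medians run from 1.79 to 2.70 with all cells and from 1.24 to 1.95 at matched depth, and the red points at 0.1 or less are members with 0 UMIs at 6 DAP. Zm00001d017288, Zm00001d008693 and Zm00001d053740 have no grey point in AL-marker cells, since they had no UMI there at 7 DAP.

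Differences between the marker classes at 7 DAP were not used to choose the members and could be tested over the 3 libraries. Each class was compared with the mean of the other 2 by edgeR's quasi-likelihood test with the library as a block and Benjamini-Hochberg adjustment over 17550 genes. In SE-marker cells 48 members were higher and 16 lower at an adjusted p below 0.05, where 32.5% and 30.6% of all genes tested were. In AL-marker cells 25 were higher and 41 lower, beside 27.2% and 28.1%, and in BETL-marker cells 22 were higher and 41 lower, beside 30.1% and 31.3%. The median log2 difference of the members was 0.39 in SE-marker, -0.24 in AL-marker and -0.21 in BETL-marker cells, beside 0.03, -0.04 and -0.04 over all genes. Every difference given with an adjusted p below had the same direction in 3 of 3 libraries, and ± is the standard error over these libraries.

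Scaling changed the direction of some of these calls. TMM factors were 1.34 to 1.39 for the SE-marker sums and 0.770 to 0.942 for the others. Library totals alone move the median log2 difference over all genes from 0.03 to 0.72 in SE-marker cells, from -0.04 to -0.27 in AL-marker cells and from -0.04 to -0.50 in BETL-marker cells. With them 70 members were higher and 7 lower in SE-marker cells, beside 12809 and 1519 of the 17550 genes tested. In AL-marker cells it was 16 and 55, beside 3230 and 7860. In BETL-marker cells it was 12 and 59, beside 2427 and 10564. Of 193 calls with TMM 165 were kept and 17 turned around. Called in the same direction with both scalings were 48 members higher in SE-marker, 16 higher in AL-marker and 12 higher in BETL-marker cells, and the members named next are among these unless a flip is given. The share of all genes called with both scalings was not computed.

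**Figure D4:**
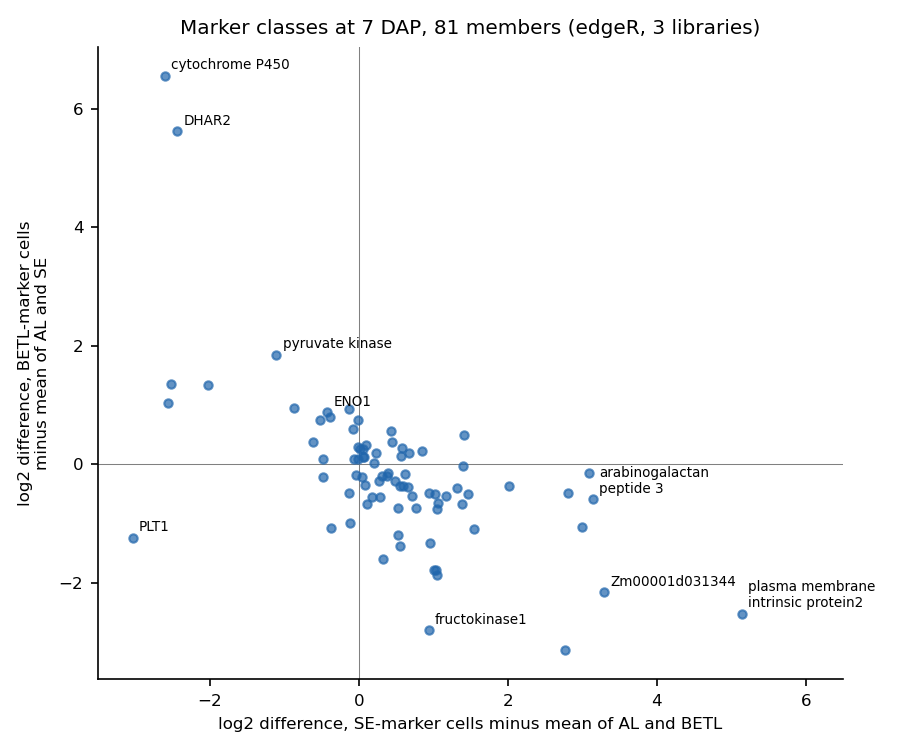
Log2 difference of SE-marker cells from the mean of AL- and BETL-marker cells (x) against that of BETL-marker cells from the mean of AL- and SE-marker cells (y) at 7 DAP for the 81 members, from edgeR on 3 libraries. Each point is 1 member. The P450 gene and DHAR2 stand apart at the top with 6.56 and 5.63, and plasma membrane intrinsic protein2 at the far right with 5.14.

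The members with the largest log2 differences for SE-marker cells at 7 DAP were plasma membrane intrinsic protein2, Zm00001d031344 and arabinogalactan peptide 3. The aquaporin gene was at 46.0, 40.2 and 37.3 CPM in the SE-marker cells of the 3 replicates and below 1 CPM in AL- and BETL-marker cells. Its log2 difference was 5.14 ± 0.09 (n = 3, edgeR adjusted p = 7.3e-29). At 6 DAP it was at 54.0 CPM in SE-marker cells, 1.18 times the highest 7 DAP library. Zm00001d031344 had a log2 difference of 3.29 ± 0.06 (adjusted p = 4.7e-36) with 301 CPM in SE-marker cells at 6 DAP and 158 to 209 at 7 DAP. Arabinogalactan peptide 3 had 3.15 ± 0.09 (adjusted p = 2.4e-35) with 287 CPM at 6 DAP and 175 to 205 CPM at 7 DAP. Within SE-marker cells these 3 genes had ratios of 1.18, 1.44 and 1.40, each below the ratio of the whole library. Within the shallow SE-marker cells their ratios were 0.561, 1.46 and 1.44, so the aquaporin gene was no longer above every 7 DAP library there.

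HSP3 and the rolled leaf genes were also highest in SE-marker cells. HSP3 was at 97.4 CPM in SE-marker cells at 6 DAP and at 54.8, 42.3 and 37.5 CPM at 7 DAP, with 2.40 to 4.40 CPM in AL-marker cells at 7 DAP. RLD1 was at 65.4 CPM in SE-marker cells at 6 DAP and at 36.6, 29.1 and 32.1 CPM at 7 DAP, with a log2 difference of 2.02 ± 0.18 at 7 DAP (adjusted p = 2.8e-18). RLD2 was at 40.3 CPM against 25.3, 23.1 and 17.2 CPM, with a log2 difference of 1.40 ± 0.17 (adjusted p = 2.8e-12). SACD2, ELFA3, MMP18, the receptor kinase gene and VPP1 were also called higher in SE-marker cells with both scalings.

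Of the members higher in AL-marker cells, PLT1 had the largest log2 difference. It was at 68.3, 69.8 and 68.1 CPM in AL-marker cells of the 7 DAP replicates, at 3.30 to 3.76 CPM in SE-marker cells and at 3.29 to 6.65 CPM in BETL-marker cells. Its log2 difference was 4.27 ± 0.15 (adjusted p = 3.5e-34). At 6 DAP it was at 251 CPM in AL-marker cells, with an interval of 227 to 277, a ratio of 3.60. Fructokinase1 followed with a log2 difference of 1.86 ± 0.24 (adjusted p = 1.3e-12), at 39.8 CPM in AL-marker cells at 6 DAP and 13.2, 12.8 and 10.5 CPM at 7 DAP. Its 7 DAP level in SE-marker cells, 13.98, 13.4 and 9.05 CPM, overlapped that range, and it was also called higher there by 0.94 ± 0.33 (adjusted p = 5.3e-05), while BETL-marker cells had at most 1.77 CPM. Zm00001d026757 had 1.51 ± 0.05 (adjusted p = 1.5e-16) and was also higher in BETL-marker cells by 1.04 ± 0.14. ZNF6 was at 158 CPM in AL-marker cells at 6 DAP and at 33.7, 31.0 and 30.3 CPM at 7 DAP, the largest ratio within that class at 4.68, with a log2 difference of 1.44 ± 0.03 at 7 DAP (adjusted p = 1.9e-17).

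The P450 gene and DHAR2 were highest in BETL-marker cells at both ages. The P450 gene was at 155 CPM in BETL-marker cells at 6 DAP and at 56.7, 57.9 and 59.7 CPM at 7 DAP, while AL- and SE-marker cells did not exceed 2.33 CPM in any library. Its log2 difference was 6.56 ± 0.52 (adjusted p = 1.9e-35). DHAR2 was at 99.3 CPM against 33.0, 29.2 and 32.9 CPM in BETL-marker cells, and at 0.405 to 1.36 CPM in AL- and SE-marker cells at 7 DAP, with a log2 difference of 5.63 ± 0.24 (adjusted p = 2.6e-31).

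The glycolysis members differed in where they were highest. Zm00001d040446 was at 964 CPM in BETL-marker cells at 6 DAP and at 452, 398 and 379 CPM at 7 DAP, with 127 to 189 CPM in AL- and SE-marker cells at 7 DAP and a log2 difference of 1.85 ± 0.03 (adjusted p = 8.7e-34). The other pyruvate kinase, MMP18, was lower in BETL-marker cells at 7 DAP by a log2 difference of -1.33 ± 0.08 (adjusted p = 5.1e-20) and higher in SE-marker cells by 0.96 ± 0.07. ENO1 was at 4035 CPM in SE-marker, 3024 in BETL-marker and 2086 in AL-marker cells at 6 DAP. At 7 DAP it was at 1403 to 1692, 1594 to 1762 and 937 to 1061 CPM. It was higher in BETL-marker cells at 7 DAP with both scalings (0.88 ± 0.05, adjusted p = 3.1e-19), but its difference in SE-marker cells turned from -0.43 with TMM to 0.26 with library totals.

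The translation members were found in all 3 classes. ELFA11 was at 560, 549 and 728 CPM in AL-, SE- and BETL-marker cells at 6 DAP, and its 7 DAP levels were 146 to 185, 224 to 270 and 238 to 285 CPM. It was higher in BETL-marker cells with both scalings (0.81 ± 0.05, adjusted p = 4.3e-19). ELFA3 was instead highest in SE-marker cells, at 1124 CPM at 6 DAP and 625, 550 and 483 CPM at 7 DAP. RPS21A was near even at 7 DAP, at 245 to 426 CPM in AL-marker, 256 to 424 in SE-marker and 241 to 400 in BETL-marker cells, and its differences between classes changed sign or were lost with library totals. Replicate 3 was the highest in every class, so its spread between replicates was shared by all 3.

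**Figure D5:**
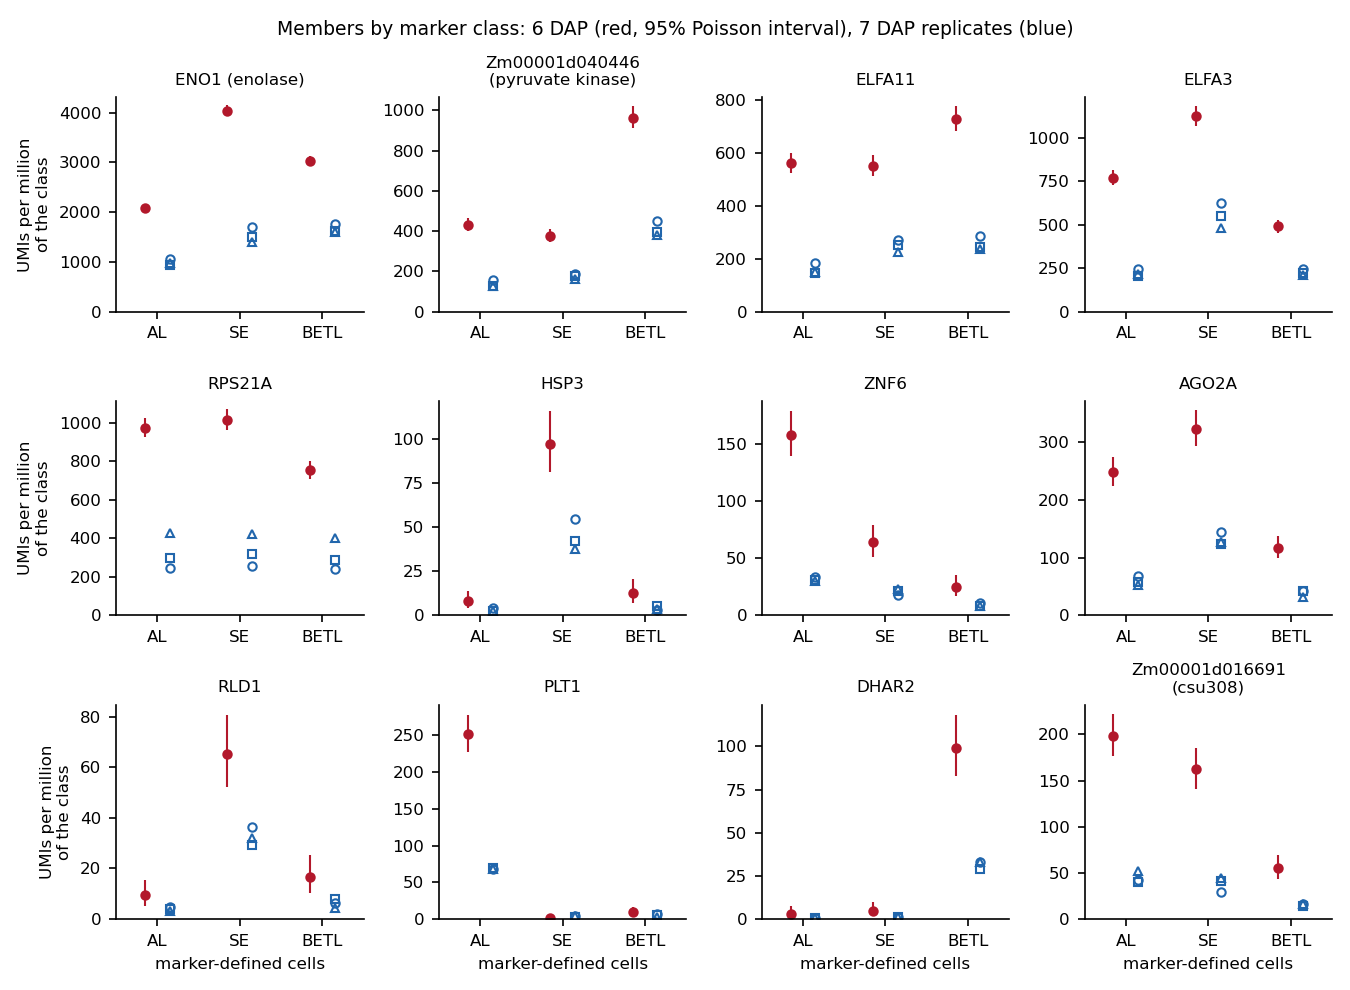
Levels of 12 of the named members in AL-, SE- and BETL-marker cells, in CPM of the class, on axes that start at 0. Red points are the 6 DAP library with its 95% exact Poisson interval and blue symbols the 3 replicates of 7 DAP (circle, square and triangle for replicates 1, 2 and 3). PLT1 is near 0 outside AL-marker cells and DHAR2 outside BETL-marker cells, while ENO1, ELFA11 and RPS21A are found in all 3 classes.

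Of the 49 members with neither a symbol nor a product, 42 had their highest 7 DAP level in SE-marker cells, 4 in AL-marker and 3 in BETL-marker cells, beside 72.7%, 15.9% and 11.3% of all genes. Zm00001d016691, with the largest ratio, was at 198 CPM in AL-marker, 162 in SE-marker and 55.2 in BETL-marker cells at 6 DAP, and its ratios within the classes were close to each other at 3.84, 3.63 and 3.46. At 7 DAP it was higher in AL-marker cells (adjusted p = 4.5e-16) and lower in BETL-marker cells by a log2 difference of -0.99 ± 0.12. Zm00001d011193 had within-class ratios of 4.39, 4.11 and 5.03. Those genes were among 16 members at least 2 times higher at 6 DAP in all 3 marker classes, while 36 were so in 2 of them, 26 in 1 and 3 in none. The same split over all genes was not computed. Within single classes 6.02% of all genes met the limit in AL-marker, 0.652% in SE-marker and 3.23% in BETL-marker cells. These counts, too, come from the contrast that chose the members and support nothing further.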

How the data were processed

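The members and gene lists were chosen with earlier results of these data known. The values used are UMI counts per gene and cell as deposited: the authors made these counts with Cell Ranger from 10x Genomics 3′ libraries against B73 version 4 gene models, with no normalization. Gene names came from the deposited feature lists and the study's tables. Cells with 500 to 7500 genes, at least 1000 UMIs and a ratio of ln genes to ln UMIs of at least 0.8 were kept, 17212 in all, and UMIs were summed per library. Members needed a mean of at least 10 CPM over the 4 libraries and a 6 DAP CPM at least 2 times the highest 7 DAP CPM. Their intervals are exact Poisson intervals at 95%, and cover counting error only.

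The 3 marker classes at 7 DAP were compared with edgeR 4.0.16 (glmQLFit, glmQLFTest, filterByExpr, TMM) on counts summed per library and class, with DESeq2 1.42.0 as an alternative in R 4.3.3. Standard errors are over the per-library differences. No doublet caller was run. The alternatives were other scalings, filters, depths and cell assignments, and leaving out each replicate. Named members are the 10 with the largest ratios, the 10 with the most counts, those with a symbol or product, the 3 highest in each class at 7 DAP and 3 genes on each side of the limit. Embryo-surrounding cells were too few to be tested.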

Additional observations from a re-analysis of the deposited data

Results flagged for a closer look

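In 5 members the 6 DAP level was above all 7 DAP libraries in one marker class and below all of them in another. The differences between classes were not tested, since there is 1 library at 6 DAP. RLD2 (Zm00001d027317) was at 40.3 CPM in SE-marker cells, above 17.2 to 25.3 CPM, and at 6.31 CPM in BETL-marker cells, where the 7 DAP libraries had 6.42 to 6.85 CPM and lay inside the 6 DAP interval of 2.72 to 12.4. Plasma membrane intrinsic protein2 (Zm00001d017288) was at 54.0 CPM in SE-marker cells and at 0 UMIs (0 CPM) in BETL-marker cells, where 7 DAP had 0.596 to 0.886 CPM. Its ratio in SE-marker cells fell to 0.561 at matched depth. Zm00001d008693 was at 13.9 CPM in AL-marker cells, above 3.11 to 4.43, and at 3.15 CPM in BETL-marker cells, below 3.57 to 5.54 CPM. The P450 gene Zm00001d037089 was at 155 CPM in BETL-marker cells and at 0 UMIs (0 CPM) in SE-marker cells, where 7 DAP had 0.431 to 2.33 CPM. PLT1 (Zm00001d023343) was at 251 CPM in AL-marker cells and at 1.52 CPM in SE-marker cells, below 3.30 to 3.76 CPM. In each case the 6 DAP interval of the lower class, reaching 2.91 CPM for the aquaporin gene, 8.07 CPM for Zm00001d008693, 2.81 CPM for the P450 gene and 5.50 CPM for PLT1, took in the 7 DAP levels.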

How the results depend on the processing

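No paired analysis was possible because there is a single 6 DAP library and the labels link it to no library of 7 DAP. The age contrast has no test. The members that still met the limit numbered 40 with TMM, 46 with DESeq2 size factors, 34 after thinning and 2 at a limit of 3, and, with settings chosen after seeing the data, 51 after centring on the median gene and 16 at matched depth. The genes that met it numbered 40 with TMM, 46 with size factors, 128 at a mean of 5 CPM, 1038 with only 3 UMIs required, 51 after thinning, 793 at a limit of 1.5 and 2 at a limit of 3. They numbered 86 to 218 with 1 of the 7 DAP replicates left out, the highest without replicate 1. At matched depth the log2 ratio turned to -0.24 for RLD1, -0.057 for RLD2 and -0.47 for plasma membrane intrinsic protein2, and 39 members in AL-marker and 14 in BETL-marker cells were at least 2 times higher at 6 DAP.

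The share of the members' UMIs in a class depends on the assignment, and is given here for 6 and then 7 DAP. With thinned cells it was 18.2% and 18.03% in AL-marker cells, 14.3% and 10.6% in SE-marker cells and, at 7 DAP, 19.3% in BETL-marker cells. With every cell assigned by its profile it was 37.4% and 36.3% in AL, 45.8% and 44.1% in SE and 16.9% and 19.7% in BETL, and 5 members were highest in AL at 7 DAP. With a marker limit 1.5 times higher it was 12.2% and 8.61%, 16.5% and 15.2%, and 13.4% and 14.5%, and with one 1.5 times lower 27.8% and 24.8%, 26.3% and 24.1%, and 17.3% and 19.3%, in the same order of classes. Without the most abundant marker of each class it was 12.8% and 20.3% in AL, which turns the order of the ages, and 17.6% and 16.4% in SE. The classes' shares of all UMIs were not computed under these assignments, so class size and member level cannot be told apart. With library totals in edgeR, chosen after seeing the data, 16 members were higher in AL, 7 lower in SE and 12 higher in BETL, beside 3230, 1519 and 2427 of 17550 genes. Of 193 class calls 163 to 189 were kept with DESeq2, its size factors, no filter, no library block or 1 replicate left out, and none was reversed. Leaving out a replicate gave 22 to 24 higher and 35 to 39 lower in AL, 44 to 47 and 14 to 15 in SE, and 21 to 23 and 33 to 38 in BETL. The causes of these shifts were not tested. With 136 UMIs in the least counted member at 6 DAP and 55 cells in the smallest class at matched depth, low members are the least precise.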
